A study of Mus musculus with 9 samples.

Results

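The NR4A nuclear receptors are a family of 3 genes, Nr4a1 (Nur77), Nr4a2 (Nurr1) and Nr4a3 (NOR-1). They were taken from microarrays of mouse striatum as the probe sets whose only gene symbol in the platform annotation was one of these names. Each of the 3 genes had 1 such probe set, out of 28815 probe sets on the array and 19935 genes with a probe set of a single symbol, and all 3 were among the 16335 probe sets that passed the filter on dim signals. The genes were proposed because their values in these groups were already known, Nr4a1 for its opposite differences after acute and chronic MPTP. Their differences between groups are therefore given as a description, without a test. The limma calls given below cover all probe sets, and for these genes they are no support.

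MPTP is a toxin of midbrain dopamine neurons, whose axons end in the striatum. Acute MPTP mice received 4 intraperitoneal injections of MPTP HCl 2 h apart, each of 20 mg/kg (free base), and were sampled 1 week later. Chronic MPTP mice received 4 mg/kg once a day for 20 days and were sampled after 8 weeks, so both groups had 80 mg/kg in total. Controls received 4 saline injections 2 h apart and were sampled after 1 week. The chronic group thus differed from the controls in agent, regimen and time, which cannot be told apart. Chronic and acute MPTP differed in both regimen and time, which likewise cannot be told apart. Each group had 3 arrays of total RNA. Strain, age and sex are not given in the sources used here, nor is the number of animals behind an array, so errors measure the spread between arrays, which may be technical.

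NR4A receptors bind DNA as monomers at an element called NBRE, as homodimers, and in the case of Nr4a1 and Nr4a2 also with the retinoid X receptors. They have no established classical ligand, and their activity is set largely by how much of them is made. Neurons transcribe them quickly after stimulation, through CREB and MEF2 family factors, so they count among the immediate early genes. Nr4a1 is the family member best known in striatal projection neurons, where dopamine and drugs acting on its receptors alter its transcription. Nr4a2 is needed for the development and upkeep of midbrain dopamine neurons, and in the forebrain it marks the claustrum and deep layers of cortex. Nr4a3 is likewise induced by neuronal activity.

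The start regions of the genes are shown because the family shares CREB-regulated transcription. The windows run from 250 bases before to 50 bases after the gene start used in the RefSeq promoter table of build GRCm38.p6. They lie at chr15:101266596-101266895 on the plus strand for Nr4a1, chr2:57123954-57124253 on the minus strand for Nr4a2 and chr4:48045055-48045354 on the plus strand for Nr4a3. Capitals mark the core of the CREB response element, TGACG, read on either strand, so that it appears as TGACG or CGTCA.
Nr4a1: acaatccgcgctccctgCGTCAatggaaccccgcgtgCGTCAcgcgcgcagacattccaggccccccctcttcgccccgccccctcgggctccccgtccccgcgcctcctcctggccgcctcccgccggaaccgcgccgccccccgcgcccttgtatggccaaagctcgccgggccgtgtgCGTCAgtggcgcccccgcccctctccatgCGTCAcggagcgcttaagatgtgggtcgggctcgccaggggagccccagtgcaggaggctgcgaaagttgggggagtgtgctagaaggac
Nr4a2: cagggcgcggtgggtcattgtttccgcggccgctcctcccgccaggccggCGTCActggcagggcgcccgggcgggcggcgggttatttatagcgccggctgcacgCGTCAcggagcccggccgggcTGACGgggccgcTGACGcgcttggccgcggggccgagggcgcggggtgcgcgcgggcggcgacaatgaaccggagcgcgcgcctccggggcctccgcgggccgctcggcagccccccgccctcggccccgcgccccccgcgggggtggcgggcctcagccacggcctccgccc
Nr4a3: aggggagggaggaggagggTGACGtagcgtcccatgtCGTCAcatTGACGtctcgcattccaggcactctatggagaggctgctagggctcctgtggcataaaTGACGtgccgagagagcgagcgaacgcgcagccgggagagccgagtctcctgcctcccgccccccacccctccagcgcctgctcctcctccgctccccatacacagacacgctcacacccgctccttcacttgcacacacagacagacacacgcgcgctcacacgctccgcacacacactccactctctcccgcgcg

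Each window held 4 copies of the core, and the full palindrome TGACGTCA was in none of the 3. In Nr4a1 all 4 copies were part of the CRE-like heptamer TGCGTCA, which contains the core on the other strand, with first bases 235, 215, 71 and 42 bases before the start. At least 1 core was found in 20.8% of 32851 such windows, and 4 or more in 0.231%. TGCGTCA was in 2.12% of windows, and 1 window, that of Nr4a1, had 3 or more. The windows are rich in G and C, at 72.3% for Nr4a1, 81.7% for Nr4a2 and 64.7% for Nr4a3, against a median of 52.7% over all windows. Nr4a2 also held a MEF2 site, starting 167 bases before the gene start and overlapping a reverse TATAAA, where 3.19% of windows held a MEF2 site. The NBRE letters AAAGGTCA were in none of the 3 windows and in 1.51% of all. A match describes these letters in these windows and shows no binding.

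Nr4a1 gave 3 levels that did not overlap, lowest after acute MPTP and highest after chronic MPTP. Its log2 intensity was 8.57, 8.69 and 8.71 on the acute arrays, 10.63, 11.31 and 11.18 on the chronic arrays, and 9.99, 9.94 and 9.96 on the control arrays. Controls and acute arrays each lay close together, while chronic 1 lay below the rest of the chronic arrays. In bulk tissue such a difference may reflect fewer cells of a type or less RNA per cell, which cannot be told apart. Acute arrays averaged 8.66 ± 0.07 (SD, n = 3) against 9.96 ± 0.02 in controls, a log2 difference of -1.31 ± 0.16 (SE), or 2.47-fold lower. Chronic arrays averaged 11.04 ± 0.36, a log2 difference of 1.08 ± 0.16 from controls, or 2.11-fold higher. Set against acute MPTP, chronic MPTP gave 2.38 ± 0.16, or 5.22-fold. By size this was first among 16335 probe sets in chronic against acute MPTP. The acute against control difference of Nr4a1 ranked 2nd by size, after that of Glp1r at -1.35, and its chronic against control difference ranked 12th.

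**Figure D1:**
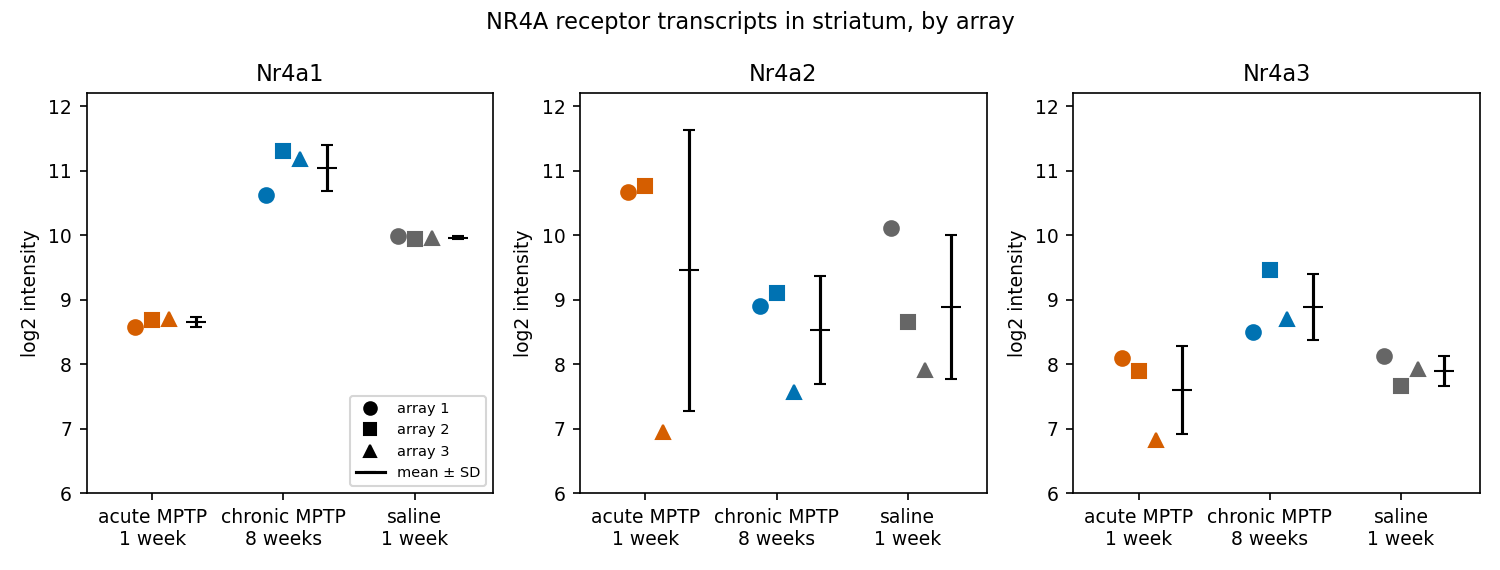
Log2 intensity (y axis) of Nr4a1, Nr4a2 and Nr4a3 on each array, by group (x axis); marker shapes give the array number and bars the mean ± SD of 3 arrays. Nr4a1 forms 3 separate levels near 8.66, 11.04 and 9.96, Nr4a2 spreads from 6.94 to 10.76 within the acute group, and the chronic arrays of Nr4a3 lie above all others.

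Because the 3 groups did not overlap in Nr4a1, the same ordering within each array number was fixed by the levels and adds no support. Acute minus control was -1.41, -1.25 and -1.26 for Nr4a1 on arrays 1, 2 and 3, and chronic minus control was 0.65, 1.37 and 1.22. Leaving out any single array kept the acute against control difference between -1.33 and -1.26 and chronic against control between 0.94 and 1.28. Chronic against acute stayed between 2.25 and 2.59. Without overlap, leaving out an array could move the size but could not turn a sign. The 3 values were -1.25, 1.26 and 2.51 with the mean levels of cortex genes and of thalamus, septum and hypothalamus genes as covariates.

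Nr4a3 was highest after chronic MPTP. Its log2 intensity was 8.09, 7.90 and 6.82 on the acute arrays, 8.50, 9.46 and 8.70 on the chronic arrays, and 8.12, 7.66 and 7.92 on the control arrays. Chronic arrays did not overlap with either other group, the gap to the highest control being 0.38 and to the highest acute array 0.41. Acute and control arrays overlapped, with acute 3 alone below the controls. The log2 difference was -0.30 ± 0.34 (SE) for acute against control, 0.99 ± 0.34 for chronic against control, or 1.98-fold, and 1.29 ± 0.34 for chronic against acute, or 2.44-fold. The acute against control value was 0.09 without acute 3, -0.54 without acute 1 and -0.19 without control 1. With the tissue covariates the chronic differences of Nr4a3 were 1.50 against control and 1.89 against acute MPTP.

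Nr4a2 varied more within each group than between groups. Its log2 intensity was 10.68, 10.76 and 6.94 on the acute arrays, 8.91, 9.11 and 7.57 on the chronic arrays, and 10.11, 8.66 and 7.90 on the control arrays. The acute arrays alone spanned 3.82 log2 units, wider than the 2.74 that Nr4a1 spanned over all 9 arrays. The differences were 0.57 (95% interval -1.66 to 2.80) for acute against control, -0.36 (-2.59 to 1.87) for chronic against control and -0.93 (-3.16 to 1.30) for chronic against acute. These intervals, which leave out any pairing of arrays, include differences in either direction larger than a doubling. With the array number as a block in the fit they were -0.66 to 1.80, -1.59 to 0.87 and -2.16 to 0.30. Each of these still includes zero but reaches past a doubling in 1 direction only. Leaving out 1 array turned the sign in both comparisons with controls, and in chronic against acute moved the size without turning it. Acute against control was -0.04 without acute 1, -0.08 without acute 2, 1.83 without acute 3, and 1.18 and 0.08 without control 1 and control 3. Chronic against control was 0.25 without control 1, -0.85 without control 3, 0.12 without chronic 3, and -0.55 and -0.65 without chronic 1 and chronic 2. Chronic against acute was -0.32, -0.28 and -2.19 without acute 1, 2 and 3, and -0.45 without chronic 3.

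The 3 arrays with the highest Nr4a2, namely acute 1, acute 2 and control 1, were those with the highest level of cortex genes. The mean of 9 measured cortex genes, each centred on its own mean, was 0.82, 1.13 and -0.60 on the acute arrays, -0.45, -0.49 and -0.87 on the chronic arrays and 1.27, -0.45 and -0.36 on the control arrays. Tbr1, which marks excitatory neurons of the cortex, lay at 9.12 to 9.89 on those 3 arrays and at 5.69 to 7.27 on the other 6. The mean of 5 measured markers of claustrum and deep cortex was 0.24 and 0.41 on acute 1 and acute 2 and 0.36 on control 1, against -0.27 to -0.04 on the other 6. With the cortex and thalamus means as covariates Nr4a2 differed by -0.12 (-1.07 to 0.84) for acute against control, 0.25 (-1.11 to 1.62) for chronic against control and 0.37 (-0.92 to 1.67) for chronic against acute, each opposite in sign to the value without them. With those 3 arrays left out and the 1 remaining acute array assumed to vary like the rest, the values were -1.34, 0.25 and 1.59. Among those 6 arrays Nr4a2 was 6.94 on acute 3, 8.91, 9.11 and 7.57 on the chronic arrays and 8.66 and 7.90 on the controls.

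**Figure D2:**
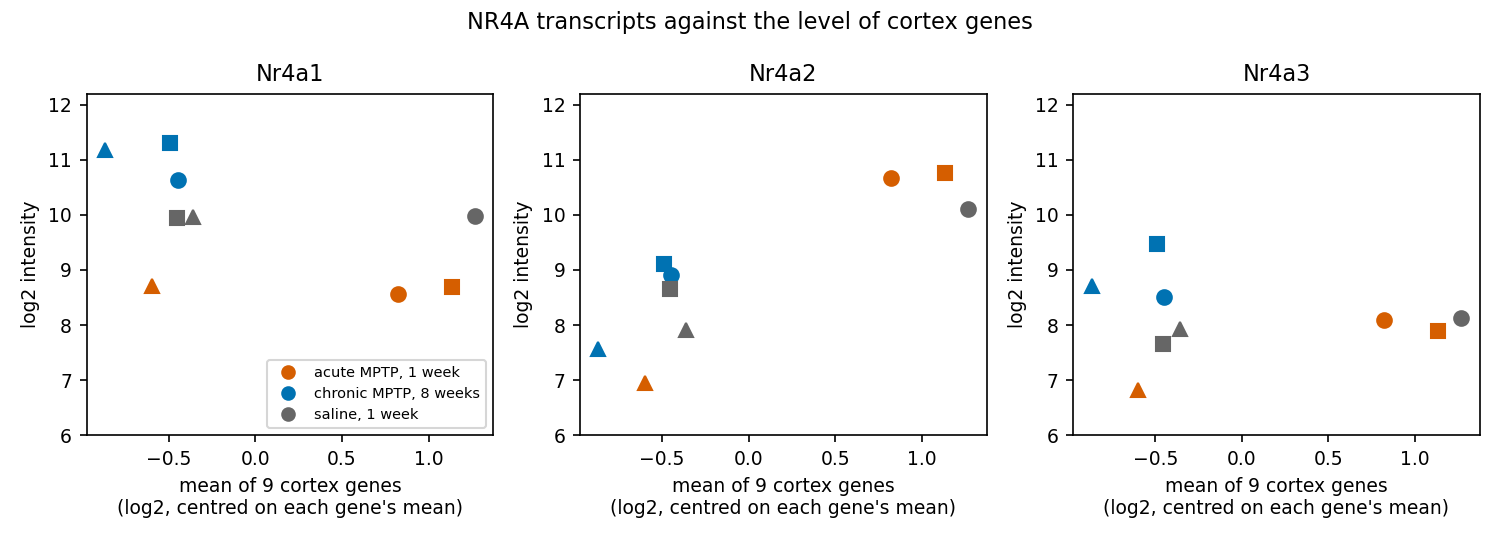
Log2 intensity of each receptor (y axis) against the mean of 9 cortex genes on the same array (x axis, log2, centred per gene); colours give the group and shapes the array number. Acute 1, acute 2 and control 1, at the right of every panel, hold the 3 highest values of Nr4a2, while Nr4a1 separates by group on both sides.

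Acute 3 and control 3 stood apart in another way, with Ttr, a transport protein made by the choroid plexus, at 13.37 and 12.56 against 6.19 to 10.85 on the remaining arrays. Array 3 had the lowest Nr4a2 in all 3 groups, and acute 3 had the lowest Nr4a3 of all arrays. Without acute 3 and control 3, Nr4a3 differed by 0.10 in acute against control, and Nr4a1 by -1.33, 1.08 and 2.41 in the 3 comparisons. Among genes of striatal projection neurons, Ppp1r1b (DARPP-32) lay at 11.44 to 12.31. Their mean over 10 genes ran from -0.01 to 0.12 on acute arrays, 0.20 to 0.35 on chronic arrays and -0.57 to 0.09 on controls. Every chronic array thus lay above every acute and control array in this mean. In chronic against control all 10 were higher, with a median of 0.52 against -0.01 over all probe sets. In limma 10 of these had an unadjusted p under 0.05, where 900 of 16335 probe sets did, and 0 were called. In acute against control 10 were also higher, with a median of 0.34 and 1 at that threshold. For endothelium, which can also express Nr4a1, the mean over 6 genes ran from -0.02 to 0.18, -0.05 to 0.01 and -0.14 to 0.01 in the acute, chronic and control groups. For microglia and monocytes it ran over 8 genes from 0.01 to 0.04, -0.02 to 0.11 and -0.22 to 0.14, with the monocyte gene Ccr2 at 4.66 to 4.79, below the filter of 5.89. The part of these tissue differences in the receptor values was tested only through the covariates and the left-out arrays given here. Projection neuron genes were not among the covariates, so their part was not tested.

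**Figure D3:**
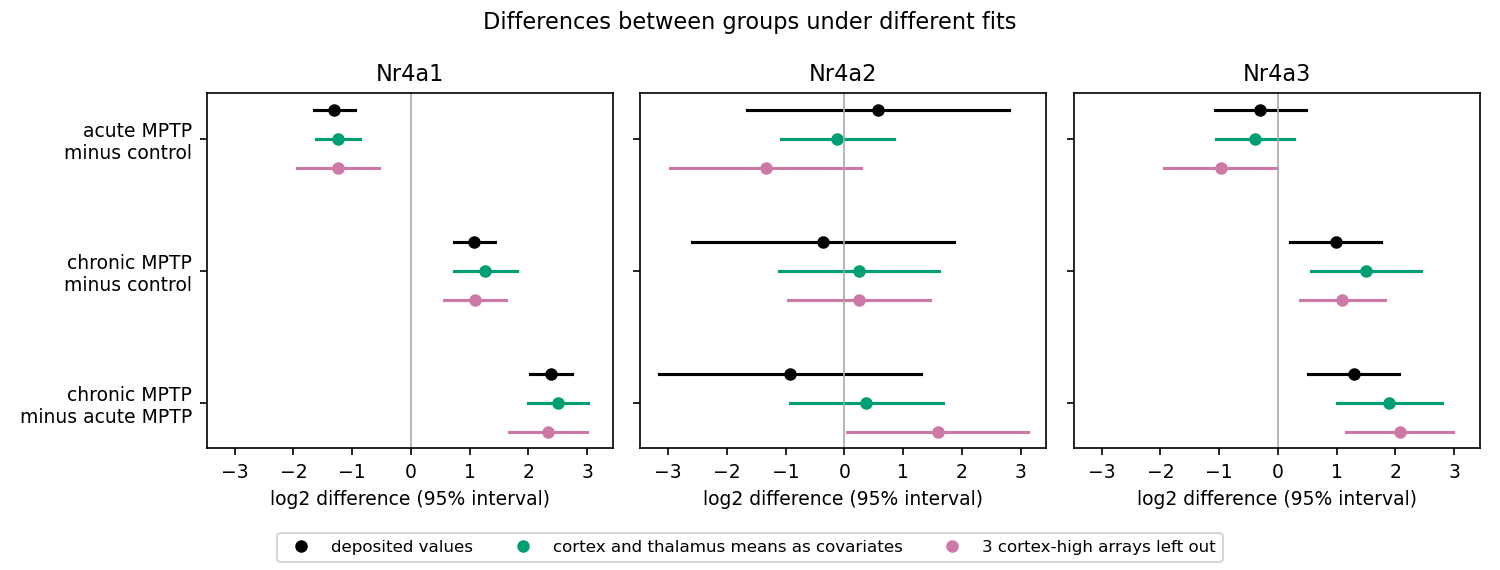
Log2 differences (x axis, points) with 95% intervals (lines) for the 3 comparisons (y axis) and each receptor, from the deposited values, with 2 tissue list means as covariates, and without the 3 arrays high in cortex genes. The Nr4a1 values stay near -1.3, 1.1 and 2.4, and all 3 Nr4a2 values change side of zero.

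Across all probe sets, limma with Benjamini-Hochberg adjustment at 0.05 called 0% in acute against control, 0% in chronic against control and 0.0122% (2 of 16335) in chronic against acute MPTP. At an unadjusted p under 0.05 there were 139, 900 and 837 of the 16335 probe sets, which is the background for the list counts at that threshold below. Of the 3 receptors 0, 0 and 1 were called, the 1 being Nr4a1, which had been chosen with this known. The Nr4a1 call ended with the tissue covariates, with acute 1, acute 2 and control 1 left out, and with acute 3 and control 3 left out. In acute against control Nr4a1 was called with only these 2 groups in the fit and without chronic 1. In chronic against control it was called without chronic 1. Because Nr4a1 was chosen on these differences, its calls only describe the fits and give no support for a difference. Arrays of acute and control mice did not overlap, with acute lower, in 1 of the 3 receptors, against 1.49% of all probe sets. Chronic arrays lay wholly above controls in 2 of the 3, against 2.88%, and wholly above acute arrays in 2 of the 3, against 3.61%. All acute arrays lay below and all chronic arrays above the controls in 14 probe sets, or 0.0857%. Nr4a1 had the largest chronic minus acute difference of these 14, followed by Egr2, Fosb and Arc, at 1.70, 1.20 and 1.18. Both MPTP groups are set against the same 3 controls, and the receptors were picked on these comparisons, so the shares only place them.

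Other immediate early genes, which neurons transcribe after stimulation much as they do the NR4A genes, mostly followed the direction of Nr4a1. Of 19 listed, 18 were tested. After acute MPTP 13 were lower and 5 higher than in controls, with a median log2 difference of -0.24 against 0.00 over all probe sets, and after chronic MPTP 16 were higher and 2 lower, with a median of 0.45 against -0.01. In chronic against acute MPTP 16 were higher, with a median of 0.72 against -0.01. The number called by limma was 0, 0 and 1, against 6, 7 and 12 at an unadjusted p under 0.05. The 1 was Arc, an activity-dependent synaptic protein, at 8.71, 8.80 and 8.84 on acute arrays, 9.85, 10.15 and 9.89 on chronic arrays and 9.69, 9.38 and 9.35 on controls. Arc rose by 1.18 ± 0.12 (SE) on the log2 scale in chronic against acute MPTP (adjusted p = 0.0288 in limma). The call of Arc ended with the replicate number as a block (adjusted p = 0.0619 in limma), with the tissue covariates (0.513) and without the filter (0.0527). It also ended with 2 groups in the fit (0.0903) and without acute 3 and control 3 (0.289). Leaving out control 2, control 3, chronic 2, chronic 3 or any acute array alone ended it too (0.0656 to 0.264). Without acute 1, acute 2 and control 1, which leaves 1 acute array, the difference of Arc was 1.13. Its difference stayed between 1.09 and 1.33 under every alternative.

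**Figure D4:**
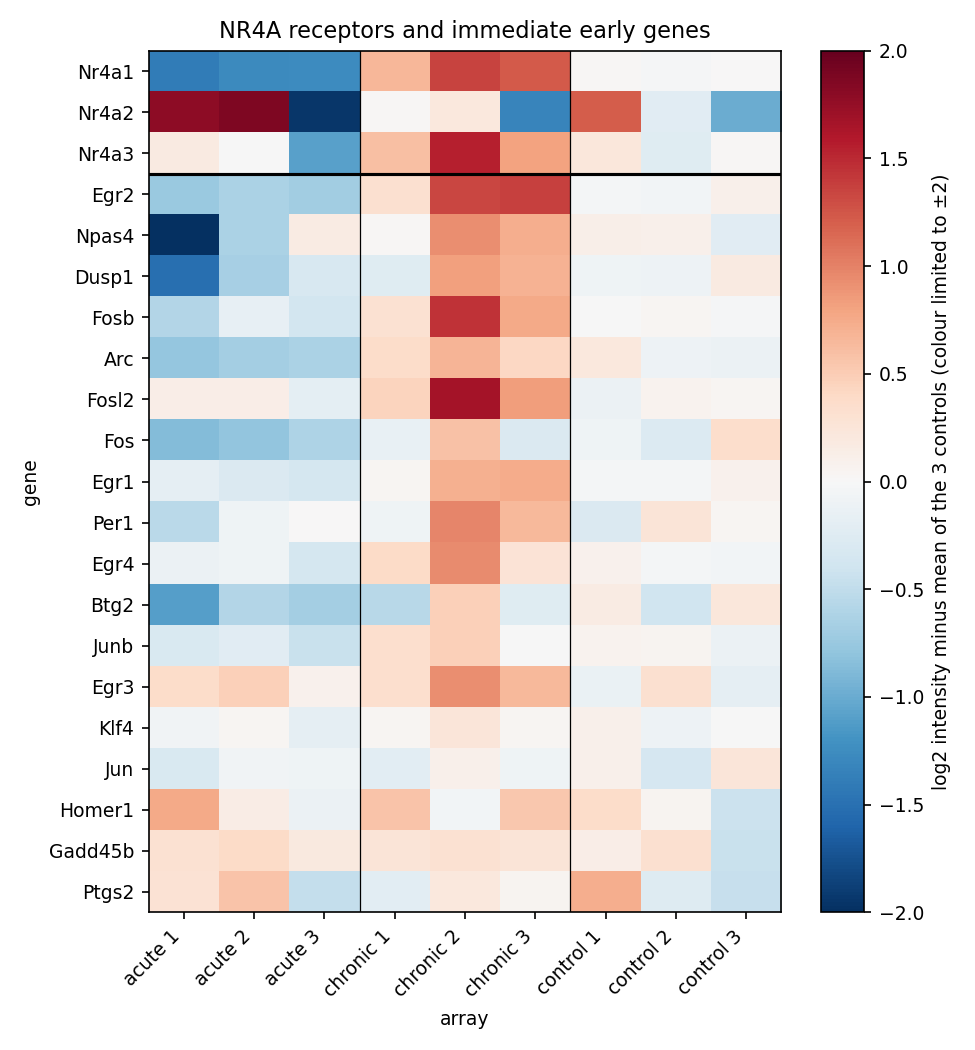
Log2 intensity minus the mean of the 3 controls (colour, limited to ±2) for the 3 receptors and 18 other immediate early genes (rows) on each array (columns). Nr4a1, Egr2 and Arc are below the controls on every acute array and above them on every chronic array, and Nr4a2 follows neither.

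Egr2, a zinc finger factor induced by activity, had log2 differences of -0.69 ± 0.24 for acute against control, 1.01 ± 0.24 for chronic against control and 1.70 ± 0.24 for chronic against acute, the highest of the list in both chronic comparisons. Egr1, of the same family, had -0.27 ± 0.17, 0.50 ± 0.17 and 0.77 ± 0.17. The acute against control difference of Fos, an AP-1 subunit, was -0.75 ± 0.23 and its chronic against control difference 0.05 ± 0.23. Junb, another AP-1 subunit, had -0.32 ± 0.13, 0.27 ± 0.13 and 0.59 ± 0.13. Npas4, a neuronal activity factor, had the lowest acute against control difference of the list at -0.87, but lay at 6.86, 8.39 and 9.18 on the acute arrays and turned to 0.23 without the 3 arrays high in cortex genes. Egr3 had the highest acute against control difference, 0.31, and Btg2 and Ptgs2 the lowest chronic differences, -0.11 against control and -0.11 against acute MPTP, which turned to 0.57 and 0.53 with the tissue covariates. Apart from Arc, these genes had adjusted p between 0.295 and 1 in limma. The mean of the 19 genes, each centred, was -0.44, -0.20 and -0.30 on acute arrays, 0.07, 0.64 and 0.34 on chronic arrays and 0.03, -0.07 and -0.07 on controls. Chronic 1 was the lowest chronic array in this mean and in both Nr4a1 and Nr4a3. Of 34 genes that the naming rule took from this and the following lists, the tissue covariates turned the sign of 6 in acute against control, 8 in chronic against control and 8 in chronic against acute MPTP. Leaving out 1 array or another turned 12, 11 and 7 of them in the same comparisons.

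Of 22 genes upstream of NR4A transcription, 19 were measured and limma called 0 in any comparison, with 0, 2 and 2 at an unadjusted p under 0.05 in acute against control, chronic against control and chronic against acute MPTP. Their median was 0.01 in acute against control, 0.12 in chronic against control and 0.11 in chronic against acute, with 10, 14 and 14 of 19 higher. Creb1, which encodes CREB itself, differed by -0.08 ± 0.10, -0.02 ± 0.10 and 0.06 ± 0.10. Crem, whose short product represses CREB sites, differed by 0.06, 0.20 and 0.14, and Mef2c by 0.11, -0.12 and -0.23. Sik1, a kinase that CREB induces and that restrains the CREB coactivators, had the lowest acute against control difference of this list, -0.56 ± 0.36, and the highest in chronic against acute MPTP, 0.99 ± 0.36. The highest against control were Camk4, a calcium-dependent CREB kinase, at 0.33 after acute MPTP and Crtc1, a CREB coactivator, at 0.47 after chronic MPTP. The lowest in both chronic comparisons was Hdac9, a deacetylase that represses MEF2, at -0.38 and -0.28, or -0.00 and -0.08 with the tissue covariates.

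Of 16 partners and coregulators, 13 were measured and limma called 0, with 0, 1 and 1 at an unadjusted p under 0.05 in the same 3 comparisons. Rxrg, the retinoid X receptor enriched in striatum and a dimer partner of Nr4a1 and Nr4a2, had the highest difference in all 3 comparisons, 0.41, 0.89 and 0.48 (each ± 0.27). It lay at 11.60, 10.96 and 10.80 on acute arrays, 11.84, 11.48 and 11.48 on chronic arrays and 10.92, 11.06 and 10.14 on controls, so only the chronic arrays stood clear of the controls. With the tissue covariates its differences were 0.18, 0.36 and 0.18. Rxra differed by -0.04, 0.04 and 0.08. Nr3c1, the glucocorticoid receptor, which opposes Nr4a1 at some promoters, differed by -0.06, -0.04 and 0.01. The lowest of the list against control were the coactivator Crebbp at -0.12 after acute MPTP and the coregulator Trim28 at -0.21 after chronic MPTP. In chronic against acute MPTP the lowest was the demethylase Kdm1a at -0.16. The remaining members lay between those limits and Rxrg.

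Among 15 genes that Nr4a2 regulates or accompanies in midbrain dopamine neurons, all were tested and limma called 0, with 1, 1 and 2 at an unadjusted p under 0.05. Their medians were -0.02 in acute against control, -0.09 in chronic against control and 0.00 in chronic against acute MPTP. Th, the rate-limiting enzyme of dopamine synthesis, lay at 7.34, 7.94 and 8.02 on acute arrays, 7.48, 8.61 and 8.36 on chronic arrays and 7.14, 8.51 and 8.28 on controls, which overlapped throughout. Slc6a3, the dopamine transporter, lay at 6.29 to 6.53, 6.45 to 6.68 and 6.58 to 6.74 in the same 3 groups. Its acute against control difference was -0.27 ± 0.10, with all acute arrays below all controls. That held for 1 of the 15 genes, against 1.49% of all probe sets, and 1 other gene had all acute arrays above all controls. Slc6a3 was also dim, below the median of the probe set means at 7.27. Klhl1 was highest against control in both, at 0.29 and 0.52, or 0.21 and 0.04 with the tissue covariates. Ret, the GDNF family receptor kinase, was lowest after acute MPTP at -0.56 and highest in chronic against acute MPTP at 0.40. The first of these Ret values was -1.02 without control 1, -0.10 without control 3, -0.18 without acute 1 and -0.98 without acute 3, and -0.13 with the tissue covariates. Its chronic against acute value was 0.03 without acute 1, 0.83 without acute 3, 0.63 without chronic 1, 0.17 without chronic 2 and 0.21 with the covariates, and it turned to -0.45 without the 3 arrays high in cortex genes. The vesicular monoamine transporter Slc18a2 was lowest in chronic against control at -0.55, and Ptpru in chronic against acute MPTP at -0.74, or -0.17 and -0.22 with the covariates. The cell bodies that transcribe Th and Slc6a3 lie in the midbrain, outside the tissue sampled.

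Striatal peptide genes that have been studied with Nr4a1 numbered 4, of which limma called 0, with 0, 1 and 0 at an unadjusted p under 0.05. Penk, the enkephalin precursor of indirect-pathway neurons, differed by 0.08 ± 0.10 in acute against control, 0.23 ± 0.10 in chronic against control and 0.15 ± 0.10 in chronic against acute MPTP. With the tissue covariates the Penk differences were 0.05, -0.03 and -0.08, so both chronic values turned sign. Pdyn, the dynorphin precursor of direct-pathway neurons, differed by 0.05, 0.34 and 0.29. Tac1, the substance P precursor, was the highest of the 4 in each comparison at 0.20, 0.58 and 0.38, and with the tissue covariates it was 0.04, 0.08 and 0.04. Nts, the neurotensin precursor, was the lowest at -0.58, -0.56 and 0.01.

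Among the nuclear receptors as a class, of which 46 outside the NR4A family were listed and 33 tested, limma called 0. At an unadjusted p under 0.05 there were 0, 7 and 4 of the 33, against 139, 900 and 837 of all 16335 probe sets. By size of difference Nr4a1 ranked 1st of 36 tested receptors in all 3 comparisons, though with the tissue covariates its chronic against control value of 1.26 was below the 1.50 of Nr4a3. Nr4a3 ranked 4th, 2nd and 2nd and Nr4a2 2nd, 8th and 3rd in acute against control, chronic against control and chronic against acute MPTP. The Nr4a2 ranks rest on differences with an SE of 0.99, each of which turned sign with the tissue covariates. Outside the family Rxrg had the largest size in both comparisons with controls, and Nr2f2 (COUP-TFII) in chronic against acute MPTP, at -0.49, or -1.25 with the covariates. The median of the 33 was -0.02, -0.01 and 0.06. The lowest were Esrrg at -0.25 in acute against control and Nr2f2 at -0.71 in chronic against control.

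**Figure D5:**
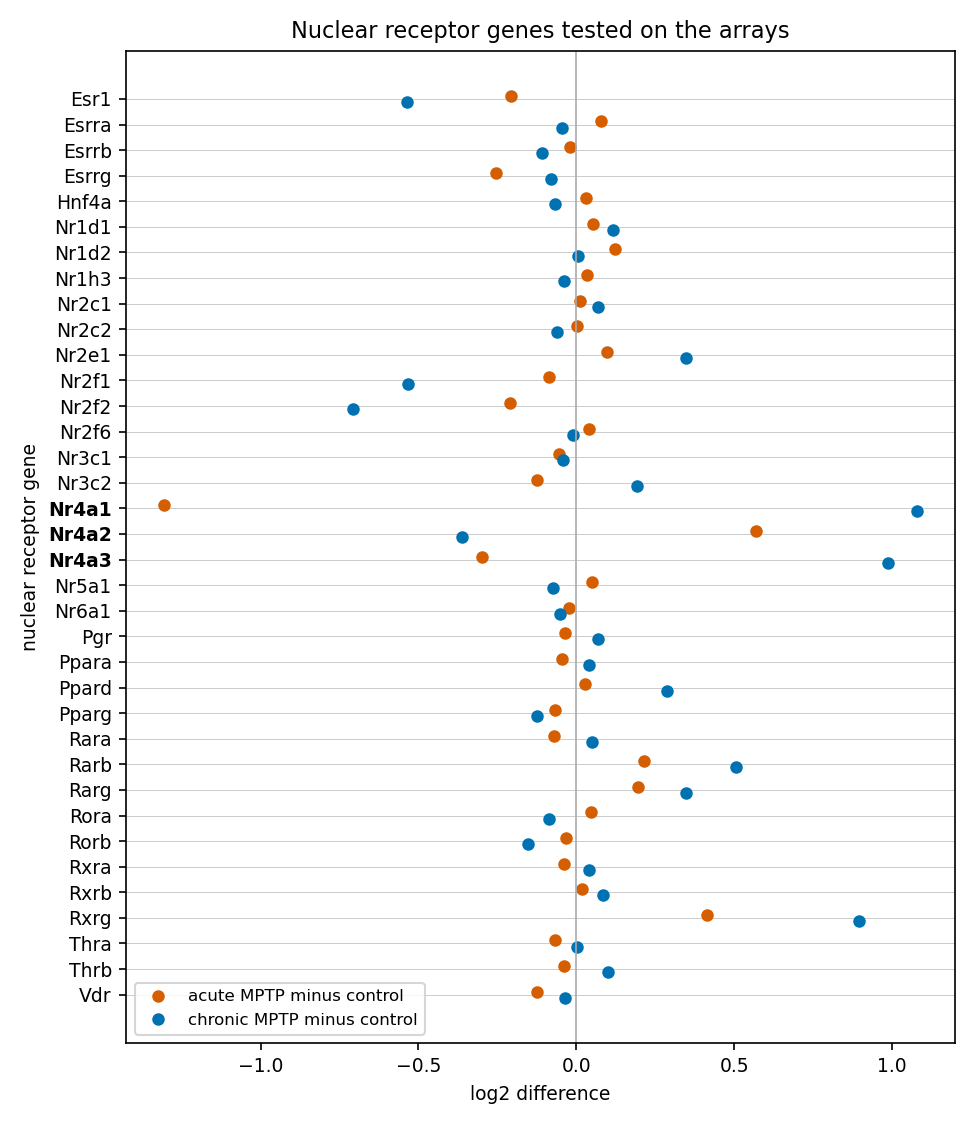
Log2 difference from controls (x axis) after acute and chronic MPTP for the 36 nuclear receptor genes tested (y axis, in alphabetical order, NR4A members in bold). Nr4a1 is the outermost point on both sides, at -1.31 and 1.08, and most of the other receptors lie within 0.5 of zero.

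The genes most like each receptor over the 9 arrays were ranked by Pearson's r across all tested probe sets. For Nr4a1 they were Arc (r = 0.98), Sp3os (0.97), Egr2 (0.96), Zfp868 (0.96) and Nup153 (0.96). Among these Egr2 and Arc spanned 2.10 and 1.44 log2 units, against 2.74 for Nr4a1, and the other three spanned 0.35 to 0.59. The 9 arrays fall into 3 separate levels of Nr4a1, so these values mostly restate the group means. Of deviations from the group means, r with Nr4a1 was 0.956 for Egr2 and 0.55 for Arc. The SD of Nr4a1 was 0.07, 0.36 and 0.02 in the acute, chronic and control groups, so both values rest mostly on the chronic arrays. For Nr4a3 the 5 were Chp2, Tanc2, Egr4, Yy1 and Phf13, with r from 0.92 to 0.94, of which Egr4 alone spanned over 1 log2 unit, at 1.29. For Nr4a2 they were Gpx2, Nfkbil1, Snora62, Ints11 and Otop2, with r from 0.956 to 0.978 and spans of 0.27 to 0.50, against 3.82 for Nr4a2 itself. Between the receptors, deviations from the group means had r = 0.79 for Nr4a2 with Nr4a3, 0.35 for Nr4a1 with Nr4a3 and -0.15 for Nr4a1 with Nr4a2. The value for Nr4a2 with Nr4a3 leans on acute 3, the lowest array in both, at 6.94 and 6.82. All of these values describe 9 arrays, in which every gene shares the dissection of its sample.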

How the data were processed

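Total RNA of mouse striatum was hybridised to 9 single-colour arrays, 3 per group. Per the labels' protocols, each target was made from 200 ng of RNA. The values the authors deposited are log2 intensities of summarised probe sets, a scale read from the values. Background correction, normalization and summary are not given in the sources used here, and the values were used as deposited. Lower quartiles ran from 5.57 to 5.67 and upper quartiles from 8.60 to 8.69. Precision is limited by the 3 arrays per group.

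Groups came from the sample titles. Of 28815 probe sets, 21780 had 1 gene symbol in the platform annotation, 1605 several and 5430 none; those with 1 symbol and a mean at or above the 25th percentile of these (log2 5.89) were tested, 16335 in all. A mean per group was fitted to all 9 arrays with limma 3.58.1 in R 4.3.3 (6 residual degrees of freedom before moderation), with two-sided tests and Benjamini-Hochberg adjustment over all tested probe sets at 0.05. The code was tested on simulated data. Intervals are 95%. For a gene with several probe sets the one with the highest mean stood for it in lists, and list levels are means of centred log2 values over measured genes.

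Named were the 3 receptors, the 5 genes most like each by Pearson's r (symbols without a proper name left out), 16 list genes fixed by name, called list genes, the highest and lowest of each list in each comparison, and marker genes. Fosb, Ccr2, Glp1r and Tiparp were named after their values were seen. The members and lists were chosen with earlier results of these data known. Promoter windows and their letters came from the RefSeq table of GRCm38.p6; for the array annotation, the build was not given in the sources used here.

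Same-numbered arrays deviated together from their group means (across probe sets, r was 0.157 to 0.673 in 9 such pairs and -0.609 to 0.184 in 18 others). The numbers were therefore taken to pair the arrays in 1 alternative fit, the replicate block, a basis in the data only. The main fit, with its errors, intervals and calls, left this pairing out. At most 6.34% of values were identical between arrays.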

Additional observations from a re-analysis of the deposited data

Results flagged for a closer look

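For 8 of the named genes every acute array lay below the control mean and every chronic array above it. The share of all probe sets with this pattern was not computed, so the count has no background. The 0.0857% of probe sets given above is for a stricter pattern, without overlap with any control. In Nr4a1 the chronic mean exceeded the acute mean by 2.38 on the log2 scale. The same held for the immediate early genes Egr2, at 1.70, Fosb, at 1.20, Arc, at 1.18, Egr1, at 0.77, and Egr4, at 0.72, and for Zfp868, at 0.41, and Sp3os, at 0.26. The opposite directions were not tested as such, because both regimens are set against the same 3 controls and Nr4a1 was chosen for them. Fosb was named for this pattern, and Egr4, Zfp868 and Sp3os for their likeness to a receptor over the same arrays.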

How the results depend on the processing

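Under all 6 other settings tried the 3 Nr4a1 differences kept their sign and stayed within 1 residual SD of their value. So they did in all 9 fits without 1 array. Leaving out arrays could not turn a sign, since the 3 groups did not overlap in Nr4a1. Fits with 2 groups, and fits without an array of the group outside the comparison, return the same difference by construction. With the replicate block the Nr4a1, Nr4a2 and Nr4a3 differences are the same by construction (chronic against acute 2.38, -0.93 and 1.29, with SE 0.13, 0.53 and 0.31), and of 2 probe sets called in chronic against acute MPTP, Nr4a1 kept its call, Arc lost it and Tiparp, at 0.97, gained one (adjusted p = 0.0338), which left 0 list genes called in place of 1. The block changed no other call. The numbers of probe sets at an unadjusted p under 0.05 were 687, 2128 and 2278 with the block, against 139, 900 and 837.

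With the tissue covariates Nr4a2 turned to -0.12, 0.25 and 0.37 (acute against control, chronic against control, chronic against acute), Nr4a3 moved to 1.50 and 1.89 in the chronic comparisons, and 0 probe sets and 0 list genes were called in chronic against acute MPTP. Without the 3 arrays high in cortex genes, an alternative chosen after seeing the data, Nr4a2 was -1.34, 0.25 and 1.59, Nr4a3 -0.97 in acute against control and 2.07 in chronic against acute, and both counts were 0. Without acute 3 and control 3, likewise added, Nr4a3 was 0.10 in acute against control and both counts were 0. With 2 groups in the fit 1 probe set, Nr4a1, was called in acute against control and 1 in chronic against acute, and with no filter 1 in chronic against acute, with 0 list genes called in chronic against acute under both. The cause of these moves was not tested.

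Without single arrays, acute against control ran from -1.33 to -1.26 for Nr4a1, -0.0813 to 1.83 for Nr4a2, -0.54 to 0.0916 for Nr4a3 and -0.29 to -0.22 for the median of the immediate early genes, with 0 to 1 probe sets and 0 list genes called. Chronic against control ran from 0.94 to 1.28, -0.85 to 0.25, 0.70 to 1.18 and 0.30 to 0.58, with 0 to 2 probe sets and 0 to 1 list genes called. Chronic against acute ran from 2.25 to 2.59, -2.19 to -0.28, 0.90 to 1.53 and 0.50 to 0.90, with 1 to 5 probe sets and 0 to 3 list genes called, most without chronic 1. Signal over background is not in the values used here.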
